A study of Homo sapiens with 9 samples.

Results

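Foretinib was compared with cabozantinib at the same dose and time, in the set of 5509 genes with a mean normalised read count of 1000 or more over the 6 libraries of these treatments. These members were drawn from 23369 genes in the deposited table. The mean runs over both treatments, so a gene under 1000 in 1 of them could enter through the other. The cells were H1155, an established human lung cancer line with neuroendocrine features, grown in RPMI medium with serum. They received 1 µM of either compound for 4 h, beginning 24 h after plating, or the vehicle DMSO. There were 3 libraries in each group, described as biological triplicates in the protocol, from this 1 line, so the p-values speak only to the spread between these cultures. The title numbers are 3, 4 and 5 for cabozantinib, 1, 2 and 4 for foretinib and 2, 4 and 5 for DMSO, and values are listed in that order. All values are normalised read counts, the reads of a gene divided by 1 size factor per library, and a log2 fold change refers to log2(value + 1), foretinib against cabozantinib.

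Cabozantinib and foretinib are related inhibitors that occupy the ATP pocket of several kinases, among them the receptor tyrosine kinases MET and KDR. Both join a quinoline ether to a fluorophenyl group through a cyclopropane dicarboxamide. In foretinib the middle phenyl ring bears an additional fluorine, and a morpholinopropoxy chain replaces 1 of the methoxy groups of cabozantinib on the quinoline. Receptor tyrosine kinases pass signals through the RAS, RAF, MEK and ERK cascade, whose output within hours includes immediate early transcription factors such as EGR1. Cholesterol synthesis genes (18 members), replication-dependent histone genes (31) and ribosomal protein genes (77) were set aside, which left 5383 members for the question of what else separates the compounds.

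The foretinib libraries stood apart from the cabozantinib libraries in spread and in genes without reads, and every result below rests on them. Totals of gene-assigned reads were 26996023 to 34062153 in foretinib and 27264766 to 27522332 in cabozantinib. Of the 12642 genes tested, 16.3% to 21.0% were at 0 in a foretinib library and 4.41% to 5.48% in a cabozantinib library. Among members, 11 to 31 were at 0 in a foretinib library, 54 genes in all, and none was at 0 in cabozantinib. Members below 100 numbered 54 to 125 in a foretinib library and 0 to 1 in a cabozantinib library. The median coefficient of variation of a member between 3 libraries was 39.9% in foretinib, 19.7% in cabozantinib and 23.5% in DMSO. Pearson correlations between libraries of a group, over members on the log2 scale, were 0.453 to 0.527 in foretinib. They were 0.888 to 0.903 in cabozantinib and 0.815 to 0.888 in DMSO. The part of this gap in the results was not tested. Cell type markers were also read, which describe the RNA but cannot establish the identity of the line. Of 12 neuroendocrine markers 10 were members. The neuroendocrine list summed to 83012 to 92355 in foretinib and 83919.7 to 90924 in cabozantinib, with GRP at 0. The leukocyte list (10 genes) summed to 10.7 to 755 in foretinib and 174 to 299.7 in cabozantinib, with PTPRC, CD3E and CD14 at 0 in all 6 libraries. CD68 of that list ran from 0.822 to 755 in foretinib and from 174 to 271 in cabozantinib. Of the other lists, the endothelial list (8 genes) summed to 0 in foretinib and to at most 53.2 in cabozantinib, and the red cell list (6 genes) to 0 and at most 140.5. The fibroblast list (10 genes) summed to 869 to 1194 and 767 to 1049, with COL3A1, DCN and PDGFRA at 0. Its gene COL1A2 had reads in every library, 338 to 1194 in foretinib and 638 to 1028 in cabozantinib. COL1A1 was at 572, 0 and 531 in foretinib and 100, 20.9 and 129 in cabozantinib. The epithelial list (14 genes) summed to 2981 to 7101 and 5182 to 7191, with KRT5 and KRT19 at 0. By contrast, KRT8 was at 763 to 2479 in foretinib and 892 to 2820 in cabozantinib. KRT18 was at 1581 to 3819 and 1730 to 3540. Other epithelial markers differed on either side. CDH1 was at 120, 170 and 75.7 in cabozantinib and at 0 in every foretinib library. EPCAM was at 715, 144 and 101 in cabozantinib and 0, 0 and 259 in foretinib. KRT7 was at 0, 0 and 1.02 in cabozantinib and 15.6, 1101 and 0 in foretinib. CLDN3 was at 154, 0 and 426 in cabozantinib and 754, 659 and 0 in foretinib. Transcripts of KDR were at 0 in all 6 libraries, and MET and AXL did not reach the filter of 10 in at least 3 libraries.

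The 2 inhibitors were not separated at any single member by the test across all genes. With limma, 0 of 5509 members passed an adjusted p of 0.05, as did 0 of the 12642 tested genes (0%), and the lowest adjusted p was 0.377. At an unadjusted p below 0.05 stood 428 members, 208 higher and 220 lower in foretinib. That is 7.77% of the members (3.78% higher and 3.99% lower), against 9.9% of all tested genes (1.83% higher and 8.08% lower). edgeR on whole reads called 0 members. DESeq2 on whole reads called 93 (58 higher and 35 lower), or 1.69% of members (1.05% higher and 0.635% lower) against 4.91% of all tested genes (0.68% higher and 4.23% lower), and 89 of the 93 had no overlap between the groups. The split at an unadjusted p below 0.05 depended on the scaling, being 164 higher and 269 lower with TMM scaling and 121 and 371 with quantile normalization, which moved the median log2 fold change of all tested genes by 0.20. It also depended on single libraries. The number lower was 111, 122 and 89 without cabozantinib replicates 3, 4 and 5, and 402, 446 and 440 without foretinib replicates 1, 2 and 4. The number higher was 137 without cabozantinib replicate 3 and 352 without foretinib replicate 4.

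In 680 members all 3 foretinib libraries lay on one side of all 3 cabozantinib libraries, which is 12.3% of members against 14.2% of all tested genes. Foretinib was the higher group in 395 of them (7.17% of members, 4.49% of all tested genes) and the lower in 285 (5.17% of members, 9.7% of all tested genes). With a library left out, no overlap is met more easily. The number was then 842, 829 and 915 higher without foretinib replicates 1, 2 and 4, and 671, 726 and 719 lower. It was 452, 444 and 438 lower without cabozantinib replicates 3, 4 and 5. Quantile normalization gave 276 higher and 448 lower, and TMM scaling 345 and 346. The median log2 fold change was -0.03 over members and -0.44 over all tested genes, so that members sat near 0. In 521 members the log2 fold change and the ratio of the group means had opposite signs.

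**Figure D1:**
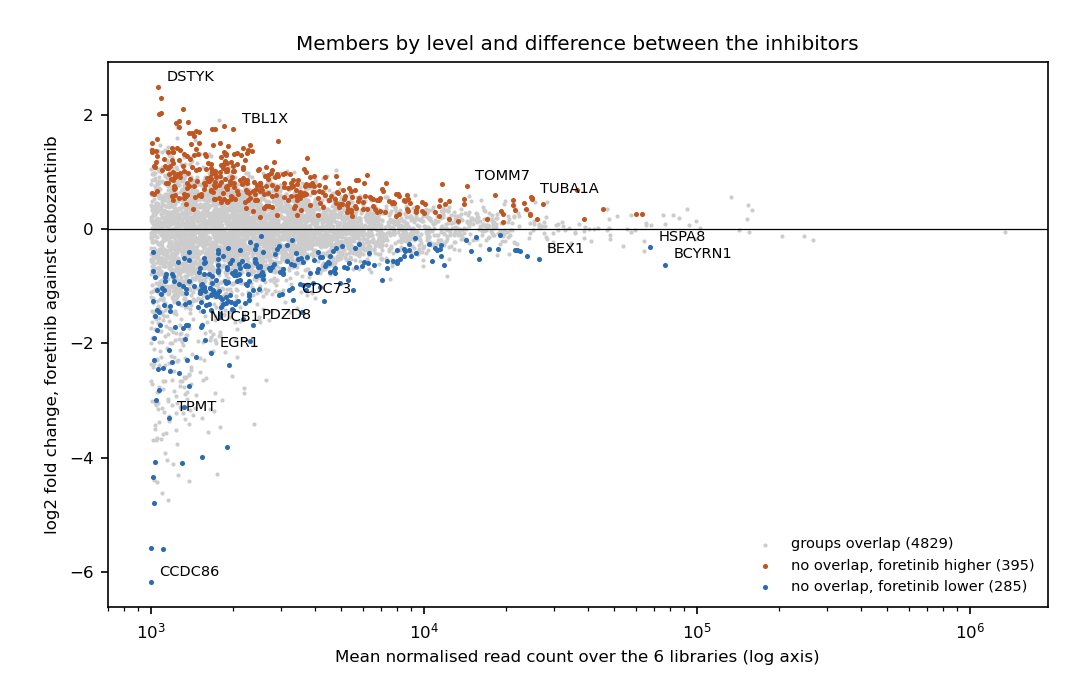
Each point is a member, with its mean normalised read count over the 6 libraries on a log axis and its log2 fold change, foretinib against cabozantinib; grey points are members whose groups overlap, and orange and blue points are the 395 higher and 285 lower members without overlap. The spread of differences narrows with level, and large negative values occur only towards the lower end.

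How close the compounds were could be bounded best in members with many reads. The 95% interval of the log2 fold change lay within -1 to 1, that is within 2-fold, in 1657 members (30.1% of members, 13.1% of all tested genes). By level this was 33 of 2339 members at a mean of 1000 to 2000, 255 of 1131 at 2000 to 3000 and 472 of 999 at 3000 to 5000. It was 534 of 662 at 5000 to 10000, 304 of 317 at 10000 to 30000 and 59 of 61 above that. Differences of 2-fold were therefore bounded in nearly all members above 10000 and in few below 2000. These intervals take 1 spread per gene, pooled over the 3 groups, while foretinib varied more than the others. The bearing of this on the bounds was not tested. With only the 6 libraries compared in the fit, 1464 members were bounded. The median coefficient of variation in foretinib was 55.2% in the lowest band and 14.05% in the highest, against 26.6% and 6.91% in cabozantinib. At a mean of 3000 or more there were 2039 members, of which 109 were higher and 68 lower at an unadjusted p below 0.05, with a median of 0.02. The members nearest the limit of 1000 were RABGAP1L (mean 1000.2), NINL (1000.3) and EML6 (1000.8) inside it and EBAG9 (999.8), GYS1 (999.5) and TBCCD1 (999.3) outside.

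**Figure D2:**
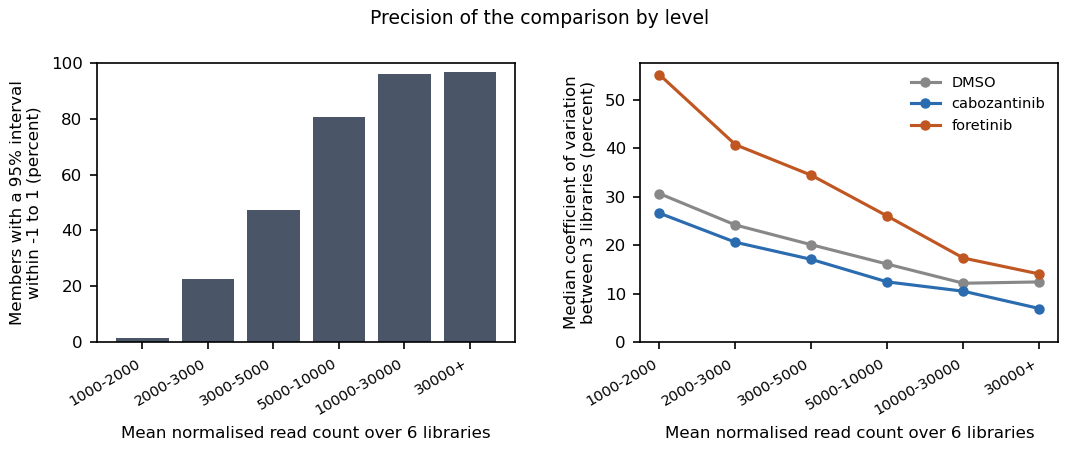
Left, the percentage of members whose 95% interval of the log2 fold change lies within -1 to 1, by band of mean normalised read count; right, the median coefficient of variation between the 3 libraries of each group in the same bands. The share of bounded members climbs from 33 of 2339 to 59 of 61, and foretinib has the widest spread in every band.

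Members below cabozantinib in every foretinib library, with the 12 smallest p-values, included a drug-metabolising enzyme, a small noncoding RNA, the immediate early factor EGR1 and 9 genes of varied roles. In bulk RNA, less transcript per cell and fewer cells with the transcript cannot be told apart. For the 24 genes with the smallest p in both directions the limma adjusted p was 0.377 throughout. Their adjusted p ran from 0.0706 to 0.722 over all other limma and edgeR settings, with no change of sign, and the edgeR values on whole reads were 0.191 to 0.599. DESeq2 called all 24 of them at adjusted p values of 2.1e-10 to 0.019.

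TPMT, which inactivates thiopurine drugs by methylation, was at 1527, 2078 and 2754 in cabozantinib, 224, 190.1 and 213 in foretinib and 1144, 1352 and 1395 in DMSO. The foretinib libraries were close together and all under the lowest of the other 6. The ratio of means was 10.1-fold lower in foretinib, with a log2 fold change of -3.30 (SE 0.60, 95% interval -4.58 to -2.02), -2.63 against DMSO and 0.67 for cabozantinib against DMSO.

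EGR1, the zinc finger factor induced through ERK signalling, was at 2330.2, 2610.0 and 2913 in cabozantinib, 1029, 902 and 208 in foretinib and 4430.1, 4525 and 4944 in DMSO. The 3 groups did not overlap: DMSO was highest, cabozantinib lay between and foretinib was lowest, with foretinib replicate 4 far under the other two. The mean was 3.67-fold lower in foretinib than in cabozantinib, and the log2 fold change was -2.17 (SE 0.52, 95% interval -3.30 to -1.04). Against DMSO it was -3.00 for foretinib and -0.83 for cabozantinib. Without foretinib replicate 4 it was -1.44. The EGR1 promoter is shown because the gene was the only immediate early gene among 4 such members whose groups did not overlap, and because serum response factor acts on it through CArG boxes. The sequence is the 250 bases before the RefSeq start, plus strand of chr5:138465229-138465478 (GRCh38.p14), with the CArG boxes in capitals.
EGR1 promoter: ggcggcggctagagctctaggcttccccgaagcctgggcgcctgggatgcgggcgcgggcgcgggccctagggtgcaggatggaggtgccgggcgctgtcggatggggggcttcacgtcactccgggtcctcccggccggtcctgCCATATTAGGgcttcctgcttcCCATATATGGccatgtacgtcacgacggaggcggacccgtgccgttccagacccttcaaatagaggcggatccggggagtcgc
The boxes begin at -105 and -83 from the start. A CArG box (both strands, the motif being its own reverse complement in form) was found in this window in 50 of 4599 members with a RefSeq promoter (1.09%) and in 1.16% of all 35116 promoters in the table. Of these 50 members, 11 had an unadjusted p below 0.05 (7 higher, 4 lower), where the share was 7.77% over all members and 9.9% over all tested genes. The median log2 fold change of the 50 was -0.09 beside -0.03 over members. The 11 include HIST2H2AC and RPS27A, from the histone and ribosomal protein genes set aside elsewhere. EGR1 was 1 of the 50, and the only member with more than 1 box.

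BCYRN1, also called BC200, is a short noncoding RNA made by RNA polymerase III that was derived from an Alu repeat and binds translation factors and poly(A)-binding protein. It was at 102580.0, 78522 and 98799.6 in cabozantinib, 62586, 58878 and 59067 in foretinib and 97739, 76357 and 77809.8 in DMSO. The foretinib libraries lay within a narrow range under all other libraries. The log2 fold change was -0.62 (SE 0.14, 95% interval -0.91 to -0.33), an interval that lies wholly on the lower side and within 2-fold. Its 5′ part is shared with Alu repeats across the genome, so its read counts are uncertain.

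CDC73, a subunit of the PAF1 elongation complex, was at 5036, 4987 and 3839 in cabozantinib, 2059, 2593 and 1385 in foretinib and 3350.5, 2842 and 3138 in DMSO (log2 fold change -1.23, 95% interval -1.89 to -0.57). TAF12, a subunit of TFIID and SAGA, was at 4947, 5772 and 5857 in cabozantinib, 2576, 3989 and 1972 in foretinib and 4188, 4552 and 3645 in DMSO (log2 fold change -1.01, 95% interval -1.63 to -0.40). For both genes cabozantinib was the highest group and foretinib the lowest, with DMSO between; in TAF12 1 foretinib library reached into the DMSO range. LSM3, a subunit of the ring that binds U6 RNA, was at 4137, 4257 and 4628 in cabozantinib, 1927, 2015 and 2323 in foretinib and 4772, 3113 and 5460.4 in DMSO (log2 fold change -1.06, 95% interval -1.67 to -0.45). NSUN2, which methylates cytosines in tRNA, was at 2849, 2781 and 2309.7 in cabozantinib, 1123, 1052 and 632 in foretinib and 1313, 2967 and 2393 in DMSO (log2 fold change -1.54, 95% interval -2.47 to -0.61). Foretinib was under all libraries of both other groups in LSM3 and NSUN2.

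The remaining genes among the 12 were membrane, signalling and neuronal. PDZD8, an endoplasmic reticulum protein at contact sites with other organelles, was at 2852, 3605 and 4456 in cabozantinib, 1031, 1004 and 1334 in foretinib and 1854, 3880.5 and 3661 in DMSO (log2 fold change -1.68, 95% interval -2.49 to -0.88). NUCB1, a calcium-binding protein of the Golgi, was at 2513, 2456 and 2081 in cabozantinib, 815, 652 and 679 in foretinib and 2129, 2092 and 1467 in DMSO (log2 fold change -1.72, 95% interval -2.60 to -0.84). In both, cabozantinib and DMSO overlapped and foretinib lay beneath them. PTPN12, a tyrosine phosphatase of focal adhesion proteins, was at 1914, 1889 and 2402 in cabozantinib, 576, 726 and 108 in foretinib and 1859.9, 1133 and 1787 in DMSO, with a log2 fold change of -2.53 (95% interval -4.01 to -1.04) that was -1.67 without foretinib replicate 4. APC, the scaffold that holds β-catenin in its destruction complex, was at 3735, 1948 and 3857 in cabozantinib, 1211, 1357 and 1162 in foretinib and 3030.2, 4381 and 2738 in DMSO (log2 fold change -1.29, 95% interval -2.08 to -0.51). BEX1, a small neuronal protein, was at 31593, 33376 and 28301 in cabozantinib, 19440.2, 24675 and 20842 in foretinib and 26931, 28359.8 and 24680.3 in DMSO (log2 fold change -0.53, 95% interval -0.83 to -0.22). In BEX1 all foretinib libraries were under all cabozantinib libraries, while the highest foretinib library came close to the lowest DMSO library.

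**Figure D3:**
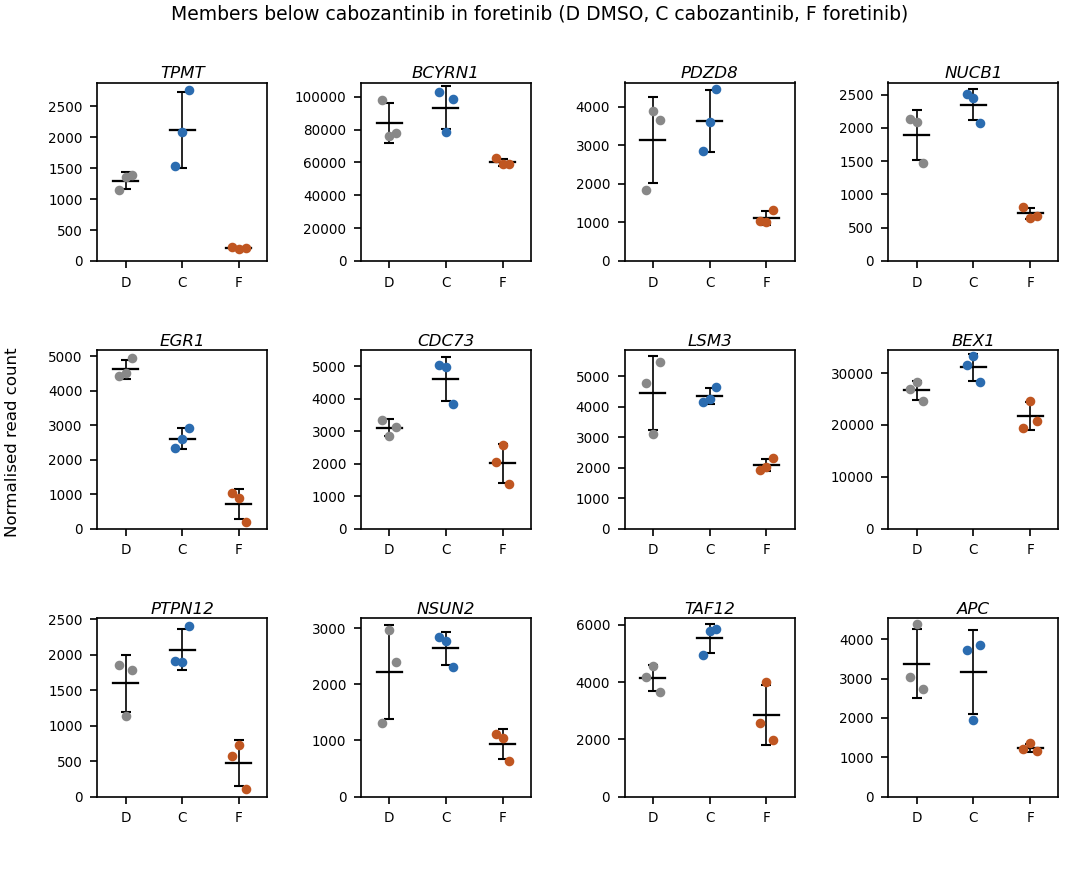
Normalised read counts of the 12 members below cabozantinib in foretinib with the smallest p; dots are libraries, bars the mean and whiskers the SD (n = 3; a whisker that would pass below 0 ends at 0). In every panel the 3 foretinib dots lie under the 3 cabozantinib dots, and EGR1 lies at 3 separate levels.

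Members above cabozantinib in every foretinib library, with the 12 smallest p-values, covered mitochondrial import and metabolism, transcriptional cofactors, receptors, vesicle traffic and the cytoskeleton. TOMM7, a small subunit of the mitochondrial import pore, was at 10757, 12339 and 9206 in cabozantinib, 17762, 20073 and 16202 in foretinib and 11542, 12133 and 9113 in DMSO. The lowest foretinib library exceeded every library of the other groups, which overlapped each other. Its log2 fold change was 0.75 (SE 0.18, 95% interval 0.36 to 1.14), 0.73 against DMSO and -0.02 for cabozantinib against DMSO. IDH2, the mitochondrial NADP-dependent isocitrate dehydrogenase, was at 2411, 2552 and 3297 in cabozantinib, 5594, 5375 and 4626 in foretinib and 3055, 2709 and 2651 in DMSO (log2 fold change 0.93, 95% interval 0.36 to 1.49). TUBA1A, an α-tubulin abundant in neurons, was at 21326, 19611 and 20114 in cabozantinib, 26849, 35671 and 26000.1 in foretinib and 20068, 21067 and 18216 in DMSO (log2 fold change 0.52, 95% interval 0.19 to 0.85). IDH2 and TUBA1A shared the arrangement of TOMM7, with DMSO and cabozantinib alike in range and foretinib above both.

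TBL1X, a subunit of the NCoR corepressor complex, was at 1333, 891 and 599 in cabozantinib, 2261, 3132 and 3847 in foretinib and 944, 1411 and 1391 in DMSO (log2 fold change 1.75, 95% interval 0.77 to 2.73). MED1, the Mediator subunit that contacts nuclear receptors, was at 4822, 3390.3 and 4013 in cabozantinib, 7602, 8532 and 6025 in foretinib and 5222, 6222 and 4406 in DMSO (log2 fold change 0.86, 95% interval 0.34 to 1.38). TBL1X was above both other groups, while in MED1 the highest DMSO library reached into the foretinib range. FZD6, a frizzled receptor for Wnt ligands, was at 1714, 1145 and 845 in cabozantinib, 4715, 2459 and 3028 in foretinib and 1377, 1831 and 2123 in DMSO (log2 fold change 1.47, 95% interval 0.58 to 2.36). KIF15, a kinesin of the mitotic spindle, was at 1292, 924 and 1351 in cabozantinib, 2995, 2595 and 3945 in foretinib and 2236, 1820.2 and 1227 in DMSO (log2 fold change 1.42, 95% interval 0.57 to 2.26). Both were above all DMSO libraries as well.

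DSTYK, a kinase that can phosphorylate serine, threonine and tyrosine, had the largest log2 fold change on the higher side among members without overlap, 2.49 (SE 0.72, 95% interval 0.94 to 4.03). Its values were 228, 440.5 and 243 in cabozantinib, 1999.7, 818 and 2652 in foretinib and 575, 1067 and 939.8 in DMSO. Here the DMSO mean lay between, with cabozantinib at -1.52 and foretinib at 0.97 against it. OTUD4, a deubiquitinase, was at 674, 1161 and 652 in cabozantinib, 2288, 4074 and 2326 in foretinib and 1348, 829 and 988 in DMSO (log2 fold change 1.80, 95% interval 0.77 to 2.84). DENND4A, an exchange factor for Rab GTPases, was at 1041, 1002 and 1036 in cabozantinib, 3009, 2882 and 2544 in foretinib and 1655, 1269.7 and 889.8 in DMSO (log2 fold change 1.45, 95% interval 0.57 to 2.33). RAB22A, a GTPase of early endosomes, was at 2905, 2692 and 3473 in cabozantinib, 4517, 6487 and 6122 in foretinib and 2576, 2639.9 and 3100.2 in DMSO (log2 fold change 0.91, 95% interval 0.34 to 1.48). OTUD4, DENND4A and RAB22A were higher in every foretinib library than in any DMSO library. TSPYL2, a nuclear protein of the nucleosome assembly family, was at 1243, 937 and 2444 in cabozantinib, 3237, 3427 and 6287 in foretinib and 2299, 2523 and 2079 in DMSO (log2 fold change 1.54, 95% interval 0.66 to 2.42).

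**Figure D4:**
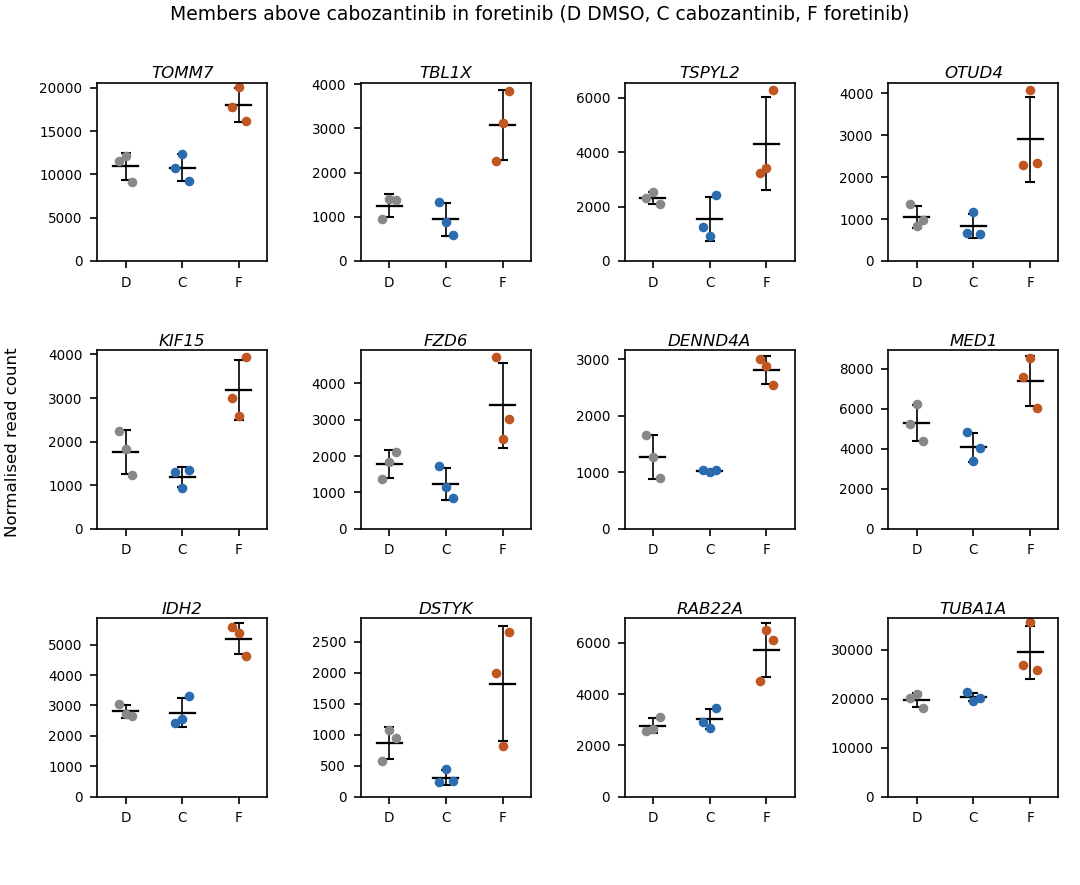
Normalised read counts of the 12 members above cabozantinib in foretinib with the smallest p; dots are libraries, bars the mean and whiskers the SD (n = 3). In every panel the 3 foretinib dots lie over the 3 cabozantinib dots, and for TOMM7, IDH2, RAB22A and TUBA1A the DMSO dots sit near the cabozantinib dots.

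DMSO means were set beside the means of both compounds. In 3505 of 5509 members (63.6%) the DMSO mean was nearer to the cabozantinib mean than to the foretinib mean. Among the 680 members without overlap this held for 527, made up of 330 of the 395 higher and 197 of the 285 lower members. It held for all 12 named genes on the higher side and for 10 of 12 on the lower side. The members without overlap and the named genes were chosen by the difference between the compounds, and foretinib had the widest spread. Such a choice favours foretinib means far from both other groups, so nearness to DMSO does not show which compound acted. The wider foretinib spread bears on the share over all members too. The DMSO mean lay between the other means in 466 of the 680, beside 2228 of all 5509 members. Taking members without overlap favours separate means, which leaves more room between them. These counts are descriptions, since the 3 DMSO libraries enter both comparisons with the vehicle.

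The gene lists below are described by counts and medians. A count without overlap is to be read against 12.3% of all members (7.17% higher and 5.17% lower) and 14.2% of all tested genes, and a list near those shares does not stand out. Among the immediate early genes and ERK targets EGR1 alone had no overlap. Of 8 members in the list of ERK feedback genes and targets, none was free of overlap and the median was -0.02. DUSP4, a phosphatase that inactivates MAP kinases in the nucleus, was at 7179, 8157 and 7963 in cabozantinib and 5796, 9092 and 5893 in foretinib. Its 95% interval, -0.65 to 0.26 from the spread pooled over groups, lay within 2-fold. DUSP6, its cytoplasmic counterpart for ERK, was at 1956, 1842 and 2427 in cabozantinib and 1426, 3723 and 3339.5 in foretinib (log2 fold change 0.34, 95% interval -0.47 to 1.15, and 0.08 to 0.78 without single libraries). ETV5, an ETS factor downstream of ERK, was at 1456, 1707 and 1232 in cabozantinib and 3375, 6.72 and 685 in foretinib, so that its log2 fold change of -2.47 turned to 0.07 without foretinib replicate 2. In the list of the RAS, RAF, MEK and ERK cascade 0 of 18 members had an unadjusted p below 0.05, and YWHAQ above and SOS1 below were the members without overlap. MAP2K2, encoding MEK2, was at 1392, 996 and 1379.9 in cabozantinib and 2691, 84.5 and 2561 in foretinib. Its log2 fold change was -0.57 (95% interval -2.76 to 1.62), and 1.08 without foretinib replicate 2, so neither a direction nor a bound could be given.

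Of 6 receptor tyrosine kinases among members, 2 were without overlap. IGF1R, the insulin-like growth factor receptor, was at 1464, 1002 and 1057 in cabozantinib, 2329, 2276 and 2154 in foretinib and 1610.3, 1590.2 and 1629 in DMSO (log2 fold change 0.96, 95% interval 0.14 to 1.78). RYK, a Wnt-binding receptor of the kinase family, was at 1040.0, 655 and 885 in cabozantinib and 1420.0, 1725 and 1655 in foretinib (log2 fold change 0.92, 95% interval -0.29 to 2.12). Every foretinib library was above every cabozantinib library in both. Of 7 cytoplasmic tyrosine kinases PTK2, which acts at focal adhesions, was at 4836, 5625 and 5345 in cabozantinib and 6926, 6961 and 6351 in foretinib (log2 fold change 0.36, 95% interval -0.13 to 0.84). JAK1, which serves cytokine receptors, was at 2125, 1128 and 3046 in cabozantinib and 538, 1222 and 892 in foretinib with overlap (log2 fold change -1.21, 95% interval -2.36 to -0.07). Neither list had a median beyond -0.05 to 0.01.

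PI3K passes signals from receptor tyrosine kinases to AKT and mTOR. Of 19 members of the PI3K, AKT and mTOR list 3 were higher without overlap (PIK3CA, PIK3R2 and PIK3R3), none was lower, and the list median was 0.01. This count was near the 12.3% of all members without overlap in either direction. By direction, 7.17% of all members were higher and 5.17% lower without overlap. PIK3R2, a regulatory subunit, was at 1012, 1050.4 and 437 in cabozantinib, 2704, 2719.6 and 2404 in foretinib and 3102, 1202 and 1217 in DMSO (log2 fold change 1.75, 95% interval 0.65 to 2.85). PIK3R3 was at 1164, 2003 and 1612 in cabozantinib, 3519, 2977 and 2011 in foretinib and 2194, 1945 and 2682 in DMSO (log2 fold change 0.83, 95% interval 0.04 to 1.62). For PIK3R2 the cabozantinib libraries were beneath all DMSO libraries.

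The chromosomal passenger complex steers chromosome attachment in mitosis. Its list, which holds the Aurora kinases and their partners, had a median of 0.29 over 7 members, with 5 above and 2 below 0. Of the 7, 3 were higher without overlap and none was lower, beside 7.17% higher and 5.17% lower over all members. The median stayed between 0.20 and 0.35 under all alternatives, and the summed level of these members was 26952 to 32859.9 in cabozantinib and 35424 to 37052 in foretinib. INCENP, the scaffold of the complex, was at 8088, 8427 and 8713 in cabozantinib, 9346, 11142 and 10758 in foretinib and 5976, 7570.1 and 7010.0 in DMSO (log2 fold change 0.31, 95% interval -0.09 to 0.70). CDCA8, known as borealin, was at 1379, 1909 and 1789 in cabozantinib, 3150.0, 3997 and 2065 in foretinib and 2250.0, 1257 and 1662 in DMSO (log2 fold change 0.82, 95% interval -0.01 to 1.66). TPX2, which activates Aurora A on the spindle, was at 5692, 6434 and 6117 in cabozantinib, 6895, 7090.0 and 8408 in foretinib and 7025, 6444 and 7082 in DMSO (log2 fold change 0.29, 95% interval -0.12 to 0.70). AURKA, the kinase Aurora A, was on the other side with wide spread, at 3335, 2657 and 4035 in cabozantinib, 1565, 5035 and 582 in foretinib and 2827, 2492 and 2733 in DMSO (log2 fold change -0.99, 95% interval -2.23 to 0.25). Its groups overlapped, and the value was -0.23 without foretinib replicate 4 and -1.79 without foretinib replicate 2. No member of this list had an unadjusted p below 0.05.

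In the mitosis list 34 of 58 members were above and 24 below 0, with a median of 0.07 and 2 higher without overlap, KIF15 and KIF18B. PLK1, a mitotic kinase, was at 2800.1, 1382 and 1619 in cabozantinib and 2130.4, 2002 and 2101 in foretinib (log2 fold change 0.17, 95% interval -0.59 to 0.93), and -0.04 without cabozantinib replicate 4. The DNA replication list had a median of -0.03 over 45 members. PCNA, the sliding clamp, was at 21847, 22979 and 23906 in cabozantinib and 26886, 43668 and 25173 in foretinib (log2 fold change 0.43, 95% interval 0.04 to 0.83), with foretinib replicate 2 far above the rest and a value of 0.18 without it. POLA1, the catalytic subunit of the primase polymerase, was at 4692, 4346 and 5746 in cabozantinib and 3701, 1921 and 2129.8 in foretinib (log2 fold change -0.98, 95% interval -1.65 to -0.32). The 2 genes stood on opposite sides of cabozantinib without overlap. CDKN2C, an inhibitor of CDK4 and CDK6, was at 1891, 1373 and 1645 in cabozantinib, 2213, 2683 and 3771 in foretinib and 1653, 1459 and 1750.3 in DMSO (log2 fold change 0.80, 95% interval 0.02 to 1.57). MYCN, the MYC family factor, was at 2566, 2729.6 and 3534 in cabozantinib and 2689.6, 4428 and 2803 in foretinib. Its 95% interval, -0.54 to 0.83 from the spread pooled over groups, lay within 2-fold. The log2 fold change of 0.14 was -0.09 without foretinib replicate 2.

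Wnt and Notch signals steer cell fate, and the difference between their lists was not tested. The Wnt list had a median of 0.33 over 13 members, against -0.03 over all members, and 0.18 to 0.71 under all alternatives. Of the 13, 4 were higher without overlap (FZD6, DVL2, DVL3 and GSK3A) and APC was lower. DVL3, which relays the signal from frizzled receptors, was at 1634, 2585 and 2486 in cabozantinib, 3328, 3182 and 5240.4 in foretinib and 3872, 2293 and 2023 in DMSO (log2 fold change 0.80, 95% interval 0.04 to 1.56). The summed level of the 13 members was 27872 to 28381 in cabozantinib and 28038 to 41789 in foretinib, so the sums overlapped. In the Notch list, with a median of -0.07, 0 of 9 members were without overlap. HES1, a repressor induced by Notch, was at 1748, 2022 and 1736 in cabozantinib and 1452, 557 and 2185 in foretinib (log2 fold change -0.60, 95% interval -1.60 to 0.40), and the value was -0.04 without foretinib replicate 2 and -1.02 without foretinib replicate 4.

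The list of neuroendocrine transcription factors had a median of 0.11 over 20 members, 11 above and 9 below 0, and 0.02 to 0.20 under all alternatives. Without overlap stood 1 member above and 1 below. INSM1, a zinc finger factor of neuroendocrine differentiation, was at 16794, 17455 and 16366 in cabozantinib, 10753, 12979.7 and 15310.2 in foretinib and 9367, 13255 and 16477 in DMSO (log2 fold change -0.39, 95% interval -0.84 to 0.06, and -0.26 without foretinib replicate 1). Every foretinib library was under every cabozantinib library, with DMSO spread across both. The list of secretory granule and synaptic vesicle genes had a median of 0.21 over 27 members, of which 18 were above 0, and 0.08 to 0.30 under all alternatives. SYP, the vesicle protein synaptophysin, was at 2209, 3669 and 2769 in cabozantinib, 6233, 5562 and 3526 in foretinib and 4979, 4458 and 4294 in DMSO (log2 fold change 0.81, 95% interval 0.19 to 1.44). The cabozantinib libraries of SYP were under all DMSO libraries, and the lowest foretinib library overlapped with cabozantinib.

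The BEX family comprises small neuronal proteins encoded together on the X chromosome. Its list, which also holds related genes such as TCEAL3, had the lowest list median, -0.32 over 7 members. This value turned to 0.12 without foretinib replicate 1. TCEAL3, a member of the related TCEAL group, was at 2089, 1709 and 2424 in cabozantinib, 844, 978 and 1137 in foretinib and 1486, 2232 and 2453 in DMSO (log2 fold change -1.07, 95% interval -1.94 to -0.20). BEX2 lay on the other side, at 1232, 2766 and 1695 in cabozantinib, 2431, 3407 and 3745 in foretinib and 1869, 2507 and 2429 in DMSO with overlap (log2 fold change 0.81, 95% interval 0.01 to 1.61, and 0.54 without cabozantinib replicate 3). BEX1 and BEX2, of 1 family, thus lay on opposite sides of cabozantinib.

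**Figure D5:**
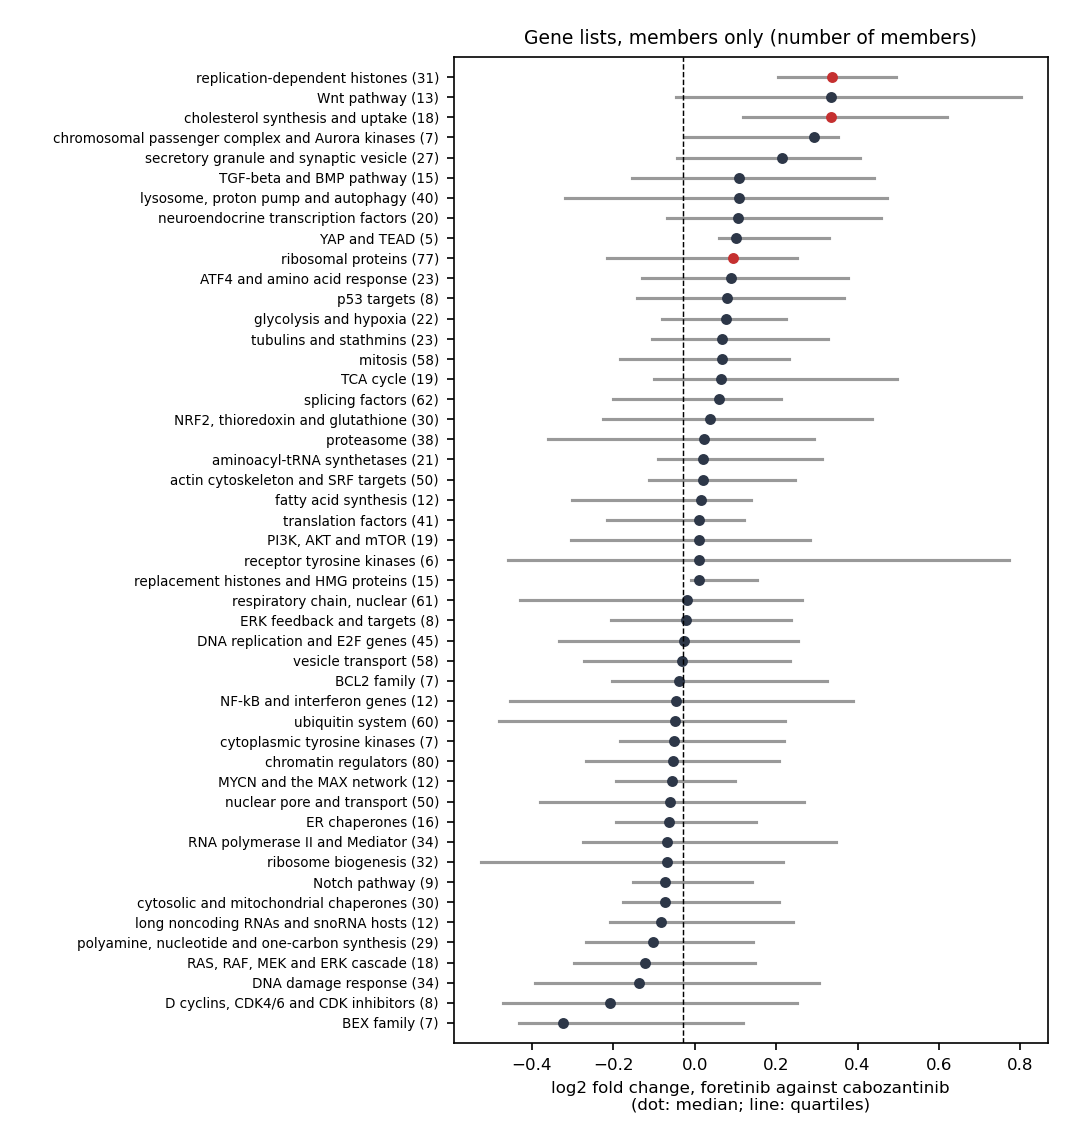
Median log2 fold change, foretinib against cabozantinib, of the members of each gene list with 5 or more members (dots; red for the lists set aside), with the quartiles as lines and the median of all members (-0.03) as the dashed line. The medians run from -0.32 for the list of BEX and related genes to 0.34 for histones, and the quartiles of most lists span 0.

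Splicing factors stood near the share of all members without overlap (12.3%). Of 62 members 6 were higher (HNRNPC, SF3B3, U2AF2, PRPF8, SNRPB and CLK1) and 2 lower (HNRNPA1 and DHX9), and 6 were higher at an unadjusted p below 0.05, a side that held 3.78% of all members. The list median was 0.06. PRPF8, the core protein of the spliceosome's catalytic centre, was at 16705, 17036 and 18593 in cabozantinib, 26049, 25826 and 22863 in foretinib and 22522, 15636 and 21168 in DMSO (log2 fold change 0.51, 95% interval 0.17 to 0.86). SF3B3, of the complex that recognises branch points, was at 6030.2, 4352 and 5709.9 in cabozantinib, 8948, 9825 and 7236 in foretinib and 6697, 5153 and 6534 in DMSO (log2 fold change 0.70, 95% interval 0.22 to 1.17). SNRPB, a core Sm protein, was at 1583, 2337 and 1468 in cabozantinib, 4411, 3179 and 2699 in foretinib and 2228, 2058 and 1776 in DMSO (log2 fold change 0.93, 95% interval 0.19 to 1.68). CLK1, a kinase that phosphorylates SR splicing factors, was at 356, 171 and 704 in cabozantinib, 1720.1, 2271 and 1308 in foretinib and 917, 622 and 527 in DMSO (log2 fold change 2.29, 95% interval 0.74 to 3.85). In all 4 genes every foretinib library was above every DMSO library too, by a narrow margin in PRPF8.

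Making and moving ribonucleoproteins and proteins showed members on both sides. The ribosome biogenesis list had a median of -0.07 over 32 members, of which 5 were lower without overlap and 2 higher. POLR1B, a core subunit of RNA polymerase I, was at 3557, 2214 and 2650.4 in cabozantinib, 1015, 1278 and 1139.7 in foretinib and 1327, 1745 and 2697 in DMSO (log2 fold change -1.27, 95% interval -2.13 to -0.41). Of 50 nuclear pore and transport members 6 were lower and 3 higher without overlap, beside 5.17% lower and 7.17% higher over all members. TNPO3, which imports SR proteins, was at 3676, 4988 and 6321 in cabozantinib and 2160.0, 728 and 3592 in foretinib (log2 fold change -1.45, 95% interval -2.46 to -0.45, and -0.81 without foretinib replicate 2). IPO13, an importin, was at 607, 860.0 and 552 in cabozantinib and 2153, 1586 and 2769 in foretinib (log2 fold change 1.68, 95% interval 0.51 to 2.84). NUPL1, a nucleoporin, was at 12591, 13537 and 13778 in cabozantinib and 12517, 7496 and 9296 in foretinib (log2 fold change -0.48, 95% interval -0.90 to -0.05, and -0.30 without foretinib replicate 2). Of 21 aminoacyl-tRNA synthetases 2 were higher and none lower without overlap, beside 7.17% higher and 5.17% lower over all members. LARS, for leucine, was at 3956, 2814 and 2998 in cabozantinib and 6216, 4538 and 8177 in foretinib (log2 fold change 0.93). EPRS, for glutamate and proline, was at 6367, 7616 and 5097 in cabozantinib and 10278, 10620.2 and 8231 in foretinib (log2 fold change 0.62). AARS, for alanine, was the 1 member of this list lower at an unadjusted p below 0.05, at 938, 2021 and 2351 in cabozantinib and 1628, 95.1 and 633 in foretinib with overlap (log2 fold change -1.83, 95% interval -3.65 to -0.01, and -0.70 without foretinib replicate 2). Of 60 members of the ubiquitin list 5 were higher and 5 lower without overlap.

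Mitochondrial and carbon metabolism included enzymes on both sides. In the TCA cycle list (19 members) the median was 0.06, CS, IDH2 and DLD were among the members higher without overlap, and MDH1 was lower. CS, citrate synthase, was at 3144, 2084 and 3733 in cabozantinib, 5982, 4389 and 4460.4 in foretinib and 3617, 4189.9 and 4251 in DMSO (log2 fold change 0.75, 95% interval 0.15 to 1.36). MDH1, the cytosolic malate dehydrogenase, was at 2119, 2375 and 2117 in cabozantinib, 499.9, 1418 and 1645 in foretinib and 1812, 1929 and 2441 in DMSO (log2 fold change -1.06, 95% interval -2.08 to -0.05, and -0.53 without foretinib replicate 1). Of 61 nuclear genes of the respiratory chain 4 were higher and 4 lower without overlap, beside 7.17% and 5.17% of all members. ATP5B, the β subunit of ATP synthase, was at 9821, 9659.6 and 8902 in cabozantinib and 13056, 15417 and 11941 in foretinib (log2 fold change 0.50, 95% interval 0.14 to 0.87). SDHB, the iron-sulfur subunit of succinate dehydrogenase, was at 5394, 5099 and 7397 in cabozantinib and 2977, 3813 and 3658 in foretinib (log2 fold change -0.76, 95% interval -1.36 to -0.17). PKM2, listed under its older symbol for pyruvate kinase, was at 20307, 16771 and 22267 in cabozantinib and 27199, 29714 and 24161 in foretinib (log2 fold change 0.45, 95% interval 0.12 to 0.79).

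GPX4, which reduces lipid peroxides, was at 1052, 1559 and 1109 in cabozantinib, 1933, 3036 and 2699.7 in foretinib and 1397, 1306 and 964 in DMSO (log2 fold change 1.04, 95% interval 0.15 to 1.93). TKT, transketolase of the pentose phosphate pathway, was at 10368, 9347 and 10828 in cabozantinib and 15273, 13344 and 12831 in foretinib (log2 fold change 0.44, 95% interval 0.03 to 0.85). PRDX6, a peroxiredoxin, was at 2493, 1610.4 and 2666 in cabozantinib and 1258, 828 and 1587 in foretinib (log2 fold change -0.90, 95% interval -1.80 to 0.01). GPX4 and TKT were higher and PRDX6 lower without overlap. The list of NRF2, thioredoxin and glutathione genes had 15 of 30 members on each side of 0, and 3 higher and none lower at an unadjusted p below 0.05. MDM2, the ubiquitin ligase of p53 and a p53 target, was at 2913, 2441 and 1959 in cabozantinib, 3182, 5124 and 5085 in foretinib and 4189, 3849 and 2351 in DMSO (log2 fold change 0.86, 95% interval 0.16 to 1.56). TP53BP1, which binds chromatin beside DNA breaks, was at 2171, 1395 and 3025 in cabozantinib, 4161, 8032 and 3612 in foretinib and 1915, 3639 and 4013 in DMSO (log2 fold change 1.24, 95% interval 0.36 to 2.12). MDM2 overlapped between foretinib and DMSO, and TP53BP1 did too.

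The chaperone and lysosome lists held few members without overlap, on both sides. Of 30 cytosolic and mitochondrial chaperones 1 was higher (PTGES3) and 1 lower (HSPA8) without overlap. The shares over all members were 7.17% higher and 5.17% lower. HSPA8, the constitutive HSP70, was at 75887, 66709.6 and 83407 in cabozantinib, 61003, 55341 and 63873 in foretinib and 70570.2, 71755 and 90658 in DMSO (log2 fold change -0.32, 95% interval -0.61 to -0.04). PTGES3, the HSP90 cochaperone p23, was at 2914, 2721 and 2500.0 in cabozantinib, 3902, 4897 and 5245 in foretinib and 1905, 2448 and 2706 in DMSO (log2 fold change 0.78, 95% interval 0.17 to 1.38). Of 40 members for lysosome, proton pump and autophagy 2 were higher (GRN and SQSTM1) and ATG3 lower without overlap. GRN, a secreted and lysosomal protein, was at 1675, 1910.4 and 1775 in cabozantinib and 2986, 2982 and 2373 in foretinib (log2 fold change 0.63, 95% interval -0.03 to 1.29). ATG3, which joins LC3 to lipid, was at 3688, 3768 and 4081 in cabozantinib and 2258, 2599 and 1937 in foretinib (log2 fold change -0.77, 95% interval -1.50 to -0.04). ISG15, a ubiquitin-like interferon target, was at 1040.0, 1489.8 and 866 in cabozantinib and 3187, 2573 and 1692 in foretinib (log2 fold change 1.12, 95% interval 0.18 to 2.06).

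Tubulins form microtubules, and stathmins bind them. Of 23 tubulin and stathmin members 15 were above 0, 3 were higher without overlap (TUBA1A, TUBB and MAP2) and none was lower. Without overlap in either direction stood 12.3% of all members, 7.17% higher and 5.17% lower. The list median of 0.07 ran from -0.06 to 0.19 over the alternatives. TUBB, a β-tubulin, was at 61097, 56063 and 55279 in cabozantinib and 71743, 69604 and 64333 in foretinib (log2 fold change 0.25, 95% interval 0.00 to 0.51). Tubulin genes resemble each other and have pseudogenes, so their counts are uncertain. Among 50 actin and SRF members 3 were higher and 3 lower without overlap. TPM4, a tropomyosin, was at 10284, 10547 and 9913 in cabozantinib and 12612, 17055 and 13674 in foretinib (log2 fold change 0.48, 95% interval 0.11 to 0.86). ARPC1A, a subunit of the Arp2/3 complex, was at 5321, 5450.2 and 4044 in cabozantinib and 2718, 3377 and 1383 in foretinib (log2 fold change -1.07, 95% interval -1.84 to -0.30, and -0.69 without foretinib replicate 4).

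The largest log2 differences on the lower side were in genes with 1 or 2 foretinib libraries near 0. CCDC86 was at 2071, 697 and 2619 in cabozantinib and 0.822, 7.68 and 626 in foretinib, a log2 fold change of -6.18 with a 95% interval of -10.09 to -2.27. OGFRL1 was at 1624, 1751 and 1773 in cabozantinib and 16.4, 851 and 2.09 in foretinib (log2 fold change -5.58). In both, 2 foretinib libraries were near 0, and leaving out single libraries gave -8.61 to -4.40 for CCDC86 and -7.87 to -3.81 for OGFRL1. In the next 4 genes 1 foretinib library was near 0, and the value without it was far smaller. FTSJ1, a tRNA methyltransferase, was at 1656, 1172 and 2085 in cabozantinib and 0.822, 282 and 934 in foretinib (log2 fold change -4.35, and -1.63 without foretinib replicate 1). FBXL5, the iron sensor of a ubiquitin ligase, was at 1789.9, 1775 and 1213 in cabozantinib and 1.64, 261 and 1158 in foretinib (log2 fold change -4.08, and -1.51 without foretinib replicate 1). DPY19L4 was at 2475, 2492 and 2872 in cabozantinib and 9.04, 514 and 868 in foretinib (log2 fold change -3.98, and -1.96 without foretinib replicate 1). DCP2, the mRNA decapping enzyme, was at 3362, 2709.6 and 2946 in cabozantinib and 1348, 5.76 and 1049.8 in foretinib (log2 fold change -3.82, and -1.33 without foretinib replicate 2). DESeq2 called none of these 6. On the higher side the largest differences, beside DSTYK and CLK1, were in LZTS2, ERAP1, IQCK and PDPR. LZTS2 was at 673, 299 and 517 in cabozantinib and 2109.9, 2931 and 1321 in foretinib (log2 fold change 2.10). ERAP1, an aminopeptidase of the endoplasmic reticulum, was at 1023, 635 and 82.9 in cabozantinib and 1419, 2185 and 1192 in foretinib (log2 fold change 2.03, and 0.94 without cabozantinib replicate 5). DESeq2 did not call ERAP1 (adjusted p 0.348). IQCK was at 641, 394 and 534 in cabozantinib and 1762, 1282 and 3037 in foretinib (log2 fold change 1.89). PDPR was at 401, 374 and 1023 in cabozantinib and 3194, 2144 and 1107 in foretinib (log2 fold change 1.87). The lowest cabozantinib library of ERAP1 was far under the other two.

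The members with the most reads gave the narrowest bounds. MALAT1, a nuclear long noncoding RNA, was at 270064, 244060.0 and 336013 in cabozantinib and 209014, 260888 and 275388 in foretinib, with a 95% interval of -0.50 to 0.12. RMRP, the RNA of RNase MRP, was at 254480.0, 247712 and 271360.0 in cabozantinib and 216762, 258008 and 238731 in foretinib (95% interval -0.37 to 0.13). PTMA, prothymosin α, was at 215254, 214293 and 212888 in cabozantinib and 169586, 203158 and 221082 in foretinib (95% interval -0.37 to 0.12). EEF1A1, the elongation factor that delivers tRNA, was at 140966, 148399 and 141636 in cabozantinib and 165406, 176958 and 143086 in foretinib (95% interval -0.07 to 0.40). MTRNR2L2, a nuclear copy of the mitochondrial ribosomal RNA whose reads may come from the mitochondrial original, had a 95% interval of -0.30 to 0.21. Both PTMA and EEF1A1 have pseudogenes, so their counts are uncertain. For all 5 the groups overlapped and the interval lay within 2-fold.

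The 3 sets that were set aside had positive medians. Cholesterol genes had a median of 0.33 with 15 of 18 above 0, histone genes one of 0.34 with 26 of 31 above 0, and ribosomal protein genes one of 0.09 with 11 higher and 8 lower without overlap. With the replicate number as a block the first 2 medians were -0.12 and -0.02. Of the 48 lists with at least 5 members, those 3 included, 26 had a median above 0. Across those 48 lists, 5 kept the sign of their median under every alternative, namely Wnt, the chromosomal passenger complex, secretory granule, neuroendocrine transcription factors and ribosome biogenesis.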

How the data were processed

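RNA-seq values came from 9 libraries of H1155 cells. Per the labels' protocols, column-purified and DNase-treated RNA went into the Encore Complete library system (Nugen). The authors deposited a signal value per gene and library, the read count divided by 1 size factor. Build hs37d5 and the tools HTSeq, DESeq2, Cufflinks 2.2.1 and TopHat2 2.0.13 are listed in the submitters' processing notes. The annotation, the strand setting and the meaning of combined in column names were not given in the sources used here. Without a stated strand setting, overlapping antisense genes cannot be told apart. In each column 100% of values were whole multiples of 1 step within 1e-06 of a read, so whole reads and totals were recovered. For 3 columns (DMSO replicate 4, cabozantinib replicates 3 and 4) the step was near 1. The deposited values are named as normalised, so count tests were used as alternatives only.

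The 12642 genes reaching 10 in 3 or more libraries were analysed as log2(value + 1) with limma 3.58.1 (trend) in R 4.3.3. All 9 libraries entered 1 model, and p-values were Benjamini-Hochberg adjusted over all tested genes at 0.05. The model takes 1 spread per gene for all 3 groups. Small values make a fold on this scale differ from the ratio of means. No overlap means that all 3 values of a group exceed all 3 of the other; an exact permutation test of 3 against 3 cannot go below 0.1, so none was run. Alternatives were pseudocounts of 10, 100 and 1000 (the last chosen after seeing the data), no filter, members only, the 6 libraries alone, quantile and TMM scaling, edgeR 4.0.16 and DESeq2 1.42.0 on whole reads, a replicate block and leaving out each library. The code was tested on simulated data with the same spread setting in all groups. The wider spread of foretinib was not simulated.

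The members and lists were chosen with earlier results of these data known. Outside the 3 sets set aside, up to 12 genes per direction were named by smallest p and 6 by largest change. These had no overlap and all 6 values above 0. Also named outside those sets were up to 4 per list by smallest p, a fixed set of kinases and early genes, and the 10 with the most reads. The text describes some of them, names further list members without overlap, and leaves out a few genes that are not reported here. Promoters are from RefSeq (GRCh38.p14). Gene symbols of 4599 of 5509 members matched a RefSeq promoter. Because hs37d5 is another build, no coordinates were used for the measurements.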

Additional observations from a re-analysis of the deposited data

How the results depend on the processing

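No member passed an adjusted p of 0.05 under any limma or edgeR setting, the lowest adjusted p of any gene being 0.0706, while DESeq2 called 58 higher and 35 lower. At an unadjusted p below 0.05 the members higher and lower in foretinib numbered 208 and 220. The number lower was 122 with only the 6 libraries, and with quantile normalization the numbers were 121 and 371. DESeq2 gave 375 higher, and the replicate block gave 138 higher. Leaving out single libraries gave 137 to 352 higher and 89 to 446 lower. Members without overlap were 565 to 915 higher and 438 to 726 lower when a library of either compound was left out, where fewer libraries ease the criterion, and 448 lower with quantile normalization. The median log2 fold change of members (-0.03) was -0.111 with quantile normalization, -0.0678 with TMM scaling, 0.0115 with a pseudocount of 1000, 0.0374 with edgeR and 0.0728 with DESeq2. It ran from -0.0384 to 0.0173 without single libraries. The 1657 members bounded within 2-fold became 4126 with a pseudocount of 1000, which shrinks every fold by construction. The cause of the other shifts was not tested.

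The replicate block assumes that title numbers pair the libraries. Over the 5 same-number pairs the correlation of deviations was -0.01 to 0.03, so the numbers are not taken as pairs. Under the block 745 members were bounded and the median log2 fold change was 0.00901. MYCN was at -0.0359, INSM1 at 0.0341, PTMA at 0.0363 and MTRNR2L2 at 0.0901 under the block, each opposite in sign to its own value.

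Of 93 genes described, 8 changed sign somewhere and 37 passed under DESeq2, and in 28 a single library turned the sign or moved the log2 fold change by more than 1.5 times. MAP2K2 was at 0.11 with a pseudocount of 1000, 0.45 with edgeR and 0.50 with DESeq2, and ran from -1.41 to 1.08 without single libraries. The same range was -4.32 to 0.0666 for ETV5, -0.0859 to 0.28 for MYCN, -0.0359 to 0.47 for PLK1 and -0.11 to 0.0526 for MTRNR2L2. EEF1A1 was at -0.00025 with quantile normalization. Below a mean of 2000, 33 of 2339 members could be bounded, beside a median coefficient of variation of 55.2% in foretinib and 26.6% in cabozantinib; the part of depth was not tested.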
